A study of Homo sapiens with 6 samples.

Results

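Nephron progenitor transcription factors are the regulators that set up and maintain the mesenchyme from which the filtering units of the kidney form. The 8 genes described here are OSR1, LHX1, PAX2, PAX8, SIX2, EYA1, SALL1 and WT1, chosen by name as genes of early kidney development, out of 19451 protein-coding genes of at least 1 kb on chromosomes 1 to 22 and X. They were examined in HEK293T, an established human line of embryonic kidney origin with an integrated SV40 large T antigen gene, for which the labels name no treatment. Fixation was in 1% formaldehyde for 10 min, and the sonicated chromatin was immunoprecipitated with 1 antibody per library. Lists of peaks, the stretches where the authors' caller found enrichment, came from antibodies to H3K79me2, H4K16ac, H3.3 and H2A.Z. H2A.Z was profiled with an antibody from each of 2 suppliers, giving the lists H2AZ CST and H2AZ Abcam. With an input library, not analysed here, the series had 6 libraries. Each antibody had 1 library of 1 cell line, so neither a spread between replicates nor a test can be given, and every comparison describes these libraries only. The read depth behind the lists is unknown. The lists used here held 44634 to 76748 peaks, covering 20.9 to 64.2 Mb, with a lowest −log10 q between 2.00 and 2.06, where q is the p-value of the authors' peak caller adjusted over the genome. A −log10 q depends on depth and antibody and is therefore set only beside values of the same list. No RNA was measured, so the peaks describe chromatin and not expression.

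In the developing kidney OSR1 marks the early intermediate mesoderm, LHX1, PAX2 and PAX8 act in the duct and in the first epithelial nephron, and SIX2 holds the cap mesenchyme in a self-renewing state together with EYA1, SALL1 and WT1. The histone variants H2A.Z and H3.3 are found at the starts of active and poised genes and at enhancers. KAT8 writes H4K16ac, the acetylation of lysine 16 of histone H4. H3K79me2, dimethylated lysine 79 of histone H3, is written by DOT1L, which travels with RNA polymerase II, and the mark lies mostly in the first part of transcribed genes.

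Promoter sequences are shown for 4 of the 8 genes, since they let the peaks be placed on the bases around annotated starts. RefSeq (GRCh38.p14) gave 8 such windows of 300 bases for SIX2, PAX2, PAX8 and WT1, each with 250 bases before the start and 50 from it. Bases under an H2AZ Abcam peak are in capitals and all others in lower case, each window read 5′ to 3′ along its gene. No entry was matched for EYA1, SALL1, OSR1 and LHX1. The first line is the SIX2 window, chr2:45009403-45009702, minus strand, where 233 of the 300 bases lay under the peak. The next lines are the first and second starts of PAX2, chr10:100735146-100735445 and chr10:100745332-100745631, plus strand. The remaining lines are PAX8, chr2:113278872-113279171, and the first start of WT1, chr11:32435490-32435789, both on the minus strand.
SIX2: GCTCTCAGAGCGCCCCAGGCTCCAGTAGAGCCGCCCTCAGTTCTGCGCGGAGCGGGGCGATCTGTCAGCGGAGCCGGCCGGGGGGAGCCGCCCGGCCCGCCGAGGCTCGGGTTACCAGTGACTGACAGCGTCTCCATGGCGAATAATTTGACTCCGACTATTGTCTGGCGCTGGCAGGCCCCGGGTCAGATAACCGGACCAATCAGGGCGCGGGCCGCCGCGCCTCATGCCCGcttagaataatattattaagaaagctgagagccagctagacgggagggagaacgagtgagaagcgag
PAX2 start 1: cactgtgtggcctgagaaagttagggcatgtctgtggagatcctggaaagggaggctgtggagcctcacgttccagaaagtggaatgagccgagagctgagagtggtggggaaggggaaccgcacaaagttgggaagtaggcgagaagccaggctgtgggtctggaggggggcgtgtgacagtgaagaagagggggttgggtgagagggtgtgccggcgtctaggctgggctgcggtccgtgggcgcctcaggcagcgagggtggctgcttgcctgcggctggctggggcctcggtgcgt
PAX2 start 2: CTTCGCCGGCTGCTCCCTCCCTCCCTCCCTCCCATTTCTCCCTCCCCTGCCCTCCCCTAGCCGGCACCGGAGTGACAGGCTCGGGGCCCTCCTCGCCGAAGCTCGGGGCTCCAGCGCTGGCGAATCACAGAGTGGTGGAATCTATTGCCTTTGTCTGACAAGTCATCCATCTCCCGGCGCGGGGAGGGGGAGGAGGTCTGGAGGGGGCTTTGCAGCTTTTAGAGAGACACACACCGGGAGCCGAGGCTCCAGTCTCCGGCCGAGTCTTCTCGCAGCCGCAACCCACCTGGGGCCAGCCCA
PAX8: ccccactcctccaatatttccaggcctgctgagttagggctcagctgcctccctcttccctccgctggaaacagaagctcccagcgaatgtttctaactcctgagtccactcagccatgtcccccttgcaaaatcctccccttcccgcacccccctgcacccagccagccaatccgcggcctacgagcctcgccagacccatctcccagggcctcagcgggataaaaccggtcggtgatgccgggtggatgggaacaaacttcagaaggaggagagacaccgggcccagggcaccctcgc
WT1 start 1: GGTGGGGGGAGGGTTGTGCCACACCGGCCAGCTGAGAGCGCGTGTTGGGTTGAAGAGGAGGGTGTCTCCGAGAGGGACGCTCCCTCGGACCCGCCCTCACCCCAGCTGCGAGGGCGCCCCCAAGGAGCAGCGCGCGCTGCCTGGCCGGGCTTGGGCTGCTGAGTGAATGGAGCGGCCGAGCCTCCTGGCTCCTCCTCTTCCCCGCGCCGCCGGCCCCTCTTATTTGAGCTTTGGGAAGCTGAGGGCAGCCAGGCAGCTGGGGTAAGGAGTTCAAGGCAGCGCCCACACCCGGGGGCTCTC

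The starts of PAX2 differed in chromatin, and the first start of WT1 was the only one of the 8 windows under peaks of all 5 lists. The second PAX2 window lay wholly under H2AZ CST and H2AZ Abcam peaks, and 98% of its bases lay under H3.3. The first PAX2 window held no peak of any list, although it is the annotated outer end of the gene. At the first WT1 start 100% of bases lay under H2AZ CST, H2AZ Abcam, H3.3 and H4K16ac and 42.7% under H3K79me2. The third WT1 window, chr11:32430764-32431063, lay wholly under an H3K79me2 peak, with 51.3% of its bases under H3.3, 52% under H4K16ac and none under H2AZ. In the PAX8 window 69.7% of bases lay under H4K16ac and none under the other lists. H2AZ CST reached 3 of the 8 windows, against 56.8% of the 21730 windows that RefSeq gave for 15412 protein-coding genes, H2AZ Abcam 4 against 61.1%, H3.3 4 against 43.8%, H4K16ac 3 against 27.3% and H3K79me2 3 against 46%. These counts differed from what the shares of all windows give for 8 windows by −1.54 windows for H2AZ CST to 0.816 windows for H4K16ac, and several windows belong to the same gene.

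The GC content of the 5 printed windows was between 62% and 70%, against a median of 62.7% over all windows. The dinucleotide CG occurred 29 times in the SIX2 window, 14 and 19 times in the first and second PAX2 windows, 13 times at PAX8 and 21 times at the first WT1 start, against a median of 21. The GC box GGGCGG, on either strand, was found at SIX2 and at the first WT1 start, and in 57% of all windows. CCAAT, on either strand, was found at SIX2 and PAX8, and in 34.4% of all windows. TATAAA and CACGTG were found in none of the 8, against 8.92% and 8.45% of all windows. None of the 4 motifs contains another, both strands were searched, and a match describes the letters only.

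All 8 genes carried H2A.Z and H4K16ac, 7 carried H3.3 and 6 carried H3K79me2. Over the gene and 10 kb on each side, H2AZ CST and H2AZ Abcam had a peak at 8 of 8 genes, against 82.9% and 83.2% of all protein-coding genes. H4K16ac had one at 8 of 8, against 70.6%, H3.3 at 7 of 8, against 75.3%, and H3K79me2 at 6 of 8, against 65%. In the gene body, from annotated end to annotated end, H4K16ac had a peak in 8 of 8 genes, against 61% of all genes. Both H2AZ lists also had one in 8 of 8, against 75.1% for H2AZ CST and 76.3% for H2AZ Abcam, though in PAX8 the body peaks of these lists did not overlap. H3.3 had one in 7 of 8, against 68%, and H3K79me2 in 6 of 8, against 58.3%. Within 1 kb of either gene end, H2AZ CST and H3.3 had a peak at 7 genes each, against 70.7% and 64.5% of all genes. H2AZ Abcam and H4K16ac had one at 6 genes each, against 71.1% and 55%, and H3K79me2 at 4, against 55.4%. All 5 lists had a peak within 1 kb of an end in 3 of the 8 genes, against 38.2% of all genes, a count that did not require the lists to share the same end. These counts differed from what the all-gene shares give for 8 genes by between −0.432 genes for H3K79me2 at gene ends and 3.12 genes for H4K16ac in the body, and nothing particular to these genes is read from the counts.

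**Figure D1:**
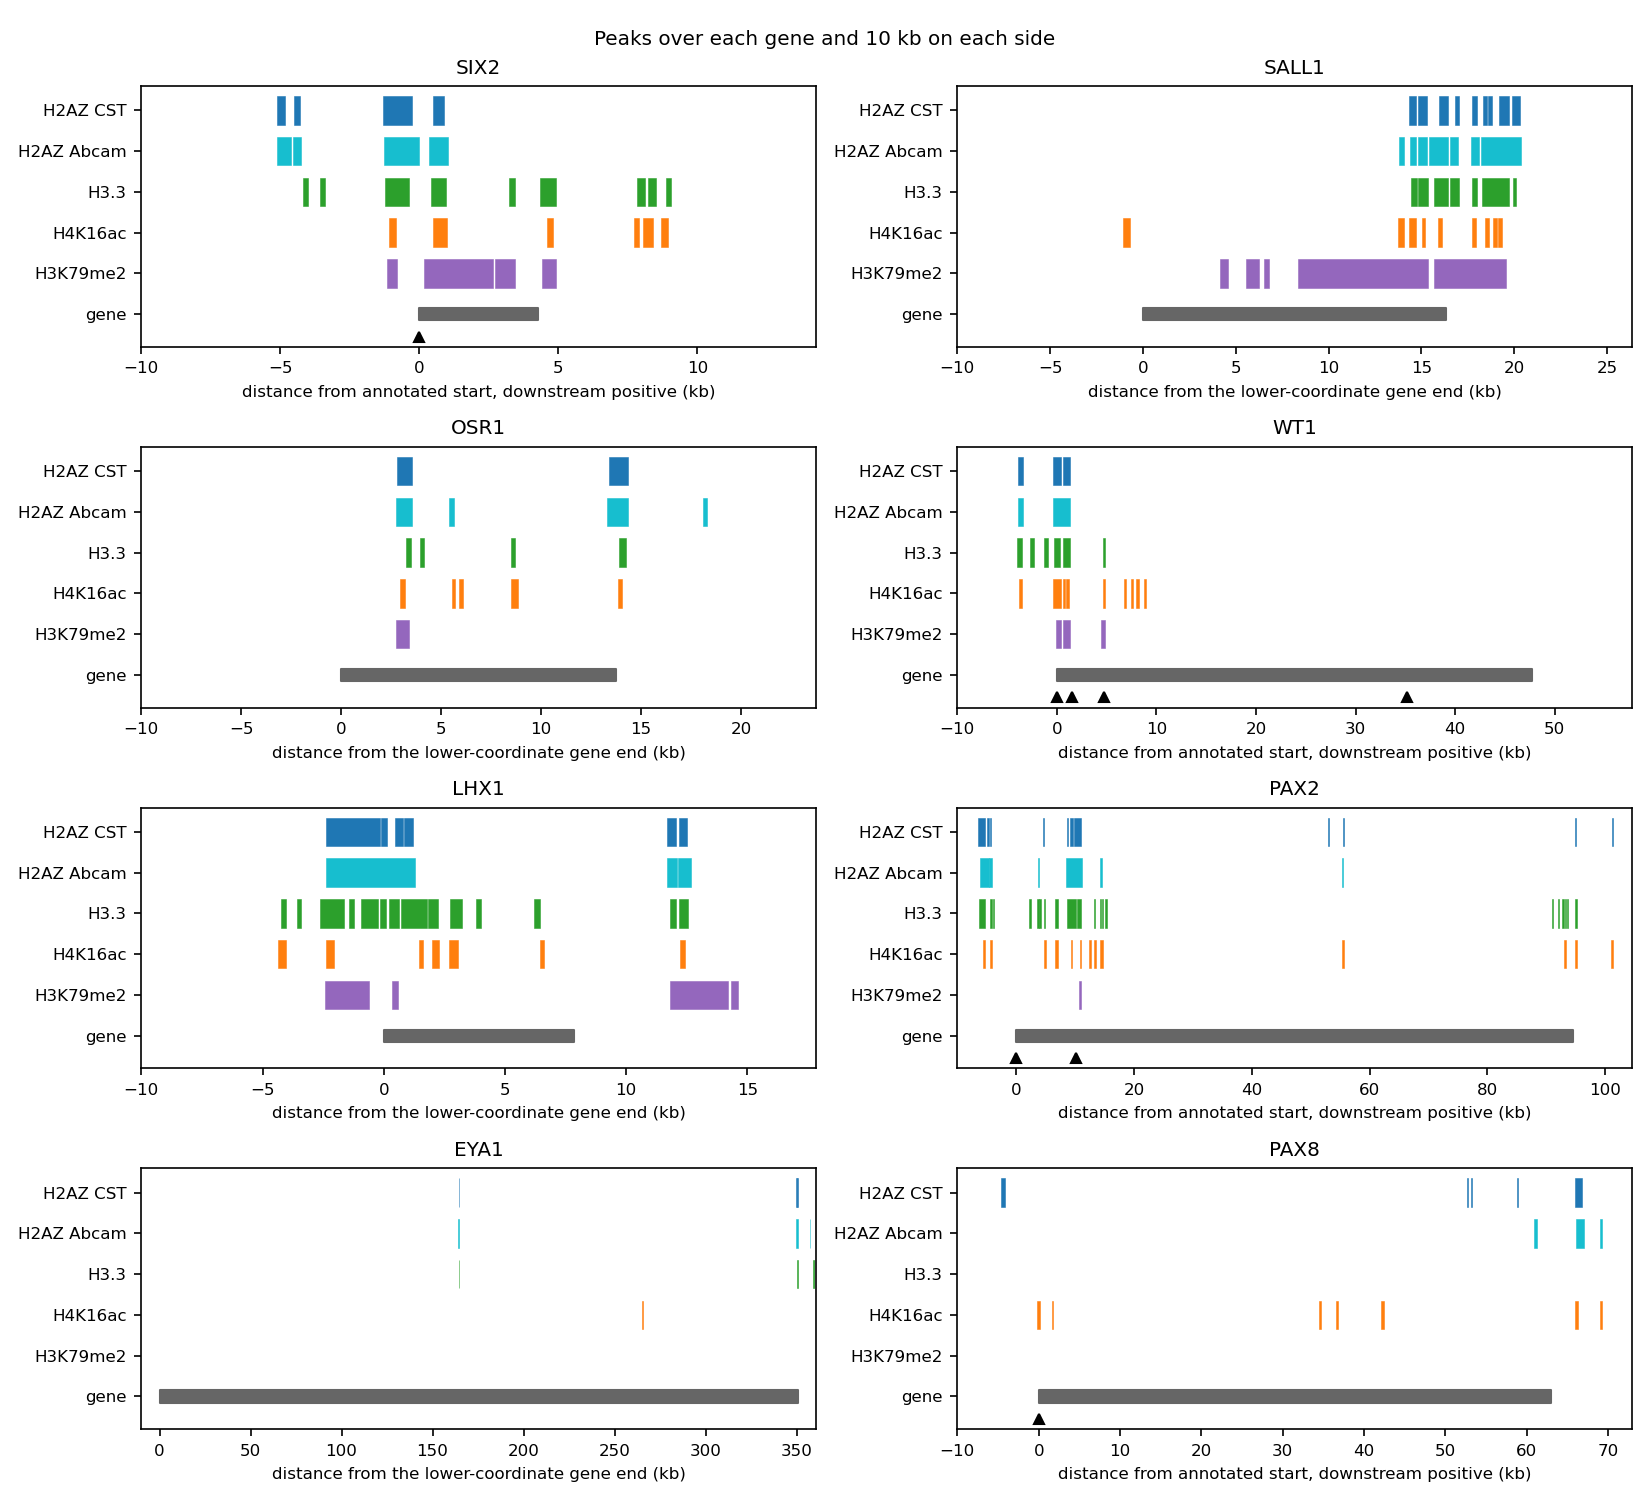
Peaks of the 5 lists over each of the 8 genes and 10 kb on each side, with distance in kb from the annotated start (SIX2, WT1, PAX2, PAX8) or from the lower-coordinate gene end (the others) on the horizontal axis and 1 lane per list. The grey bar is the gene, triangles are RefSeq starts, and SIX2 and SALL1 are the genes with H3K79me2 stretched over much of the body, while EYA1 and PAX8 have none.

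OSR1, an odd-skipped zinc finger factor, had its H3K79me2 in a single short peak, and the strongest H2AZ of the gene lay on the same spot. The gene spans chr2:19344874-19358623, and its strand is not in the table used here, so positions are counted from the lower-coordinate end. The H3K79me2 peak ran from 2735 to 3384 bp with a −log10 q of 94.6 and a fold enrichment of 23.3, both the authors' values. H2AZ CST covered 93.4% of its bases, H2AZ Abcam 100%, H3.3 22% and H4K16ac 36.8%. The H2AZ CST peak there had a −log10 q of 85.6, above 98.2% of its list, and the H2AZ Abcam peak 243, above 96.8%. At the higher-coordinate end, by contrast, H2AZ CST and H2AZ Abcam formed peaks of 989 and 1039 bp with H3.3 and H4K16ac but without H3K79me2.

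LHX1, a LIM homeobox factor, had the highest body coverage by H3.3 of the 8 genes, while most H3K79me2 in its window lay at another gene. The gene spans chr17:36936785-36944612, and positions are again from the lower-coordinate end. H3.3 formed 14 peaks over the gene and 10 kb on each side, and H3.3 covered 37.7% of the body, more than in 94.3% of all genes. A single H2AZ Abcam peak of 3677 bp ran from −2381 to 1295 bp across the gene end, where H2AZ CST was called as 4 separate peaks. The body held 1 H3K79me2 peak, 245 bp long, with a −log10 q of 5.58. A wider one of 1817 bp lay outside the gene, from −2406 to −590 bp, with a −log10 q of 36.7, inside the non-coding LHX1-DT, which ends 124 bp from LHX1. The strongest H3K79me2 peak of the window, at 338, was 2386 bp long and lay at AATF, a neighbouring gene whose nearer end is 4342 bp away.

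PAX2, a paired-domain factor of duct and nephron, carried strong H2AZ and H3.3 at its second start and a single small H3K79me2 peak. It spans chr10:100735396-100829944 on the plus strand. The strongest H2AZ and H3.3 peaks lay in a block before the first start and in a second block around the second start, at position 100745582. In the first, an H2AZ Abcam peak from −6234 to −4662 bp had a −log10 q of 236, an H2AZ CST peak 44.7 and an H3.3 peak 41.5. In the second, H2AZ Abcam ran unbroken from 8455 to 11119 bp at 209, H2AZ CST reached 67, above 95.6% of its list, and H3.3 39.3. The H3K79me2 list had 1 peak of 289 bp here, from 10718 to 11006 bp, with a −log10 q of 6.23, above 26.8% of that list. PAX2 had the most H3.3 peaks of the 8 genes, 20, of which 16 touched the body, and 13 H4K16ac peaks. Several of these lay outside both blocks. At the far end of the gene, between 91035 and 95213 bp, the −log10 q reached 17.2 for H3.3, 11.6 for H4K16ac and 4.16 for H2AZ CST. Only that far end gave PAX2 peaks of these lists within 1 kb of a gene end.

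PAX8, the close relative of PAX2, was the gene without any H3.3 peak and without H3K79me2. It spans chr2:113215997-113278921 on the minus strand. H4K16ac formed 7 peaks, with a −log10 q between 4.11 and 10.2, and 1 of them lay on the annotated start. No H2AZ peak of either antibody lay within 1 kb of a gene end. The body held H2AZ CST in 3 peaks of 170 bp, with a −log10 q of 3.95, 4.88 and 5.60, and H2AZ Abcam in 1 peak at 6.36. None of these body peaks overlapped a peak of the other H2AZ list. An H2AZ CST peak of 479 bp before the start, from −4604 to −4126 bp, had 8.82. Stronger H2AZ, at 19.5 for H2AZ CST and 40.4 for H2AZ Abcam, lay past the far end, between the gene and PSD4, whose end is 6606 bp away. The non-coding PAX8-AS1 lies inside the gene, and peaks carry no strand, so signal of the pair cannot be told apart.

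SIX2, the homeobox factor of nephron progenitor self-renewal, had 74% of its 4271 bp under H3K79me2, more than in 96.6% of all genes. It spans chr2:45005182-45009452 on the minus strand. Its main H3K79me2 peak ran over 2457 bp, from 186 to 2642 bp downstream of the start, with a −log10 q of 425 and a fold of 70.4. That was above 96.5% of the list. H2AZ lay in blocks on both sides of the start: H2AZ Abcam peaks ran from −1272 to −18 bp at a −log10 q of 103 and from 338 to 1022 bp at 75.2. H2AZ CST peaks in the same places had 24.4 and 7.48, and H3.3 peaks 25.9 and 7.18. The strongest H4K16ac peak, at 17.1, lay from 480 to 990 bp, inside the H3K79me2 peak. Neither H2AZ CST, H3.3, H4K16ac nor H3K79me2 covered any base of the window printed above. Farther upstream, between −5116 and −4257 bp, H2AZ lay without the other signals, at up to 53 for H2AZ Abcam and 24.4 for H2AZ CST.

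SALL1, a spalt zinc finger factor, held the longest and strongest H3K79me2 of the 8 genes. It spans chr16:51135982-51152334, with positions from the lower-coordinate end. A peak of 7020 bp, from 8354 to 15373 bp, had a −log10 q of 591 and a fold of 115, above 98.6% of the list. A second peak of 3863 bp, at 203, ran from 15679 bp past the higher-coordinate end to 19541 bp. Together with 3 smaller peaks they covered 55.6% of the body. H2AZ, H3.3 and H4K16ac gathered around that same end: all 9 H2AZ CST peaks, all 7 H2AZ Abcam peaks, all 7 H3.3 peaks and 8 of 9 H4K16ac peaks lay between 13726 and 20385 bp. H3.3 at the end, from 15675 to 16425 bp, had a −log10 q of 84.5, above 99% of its list and the highest of the 8 genes. The remaining H4K16ac peak lay beyond the lower-coordinate end, in LOC105371253, whose end is 91 bp from SALL1. The 3 smaller H3K79me2 peaks, between 4155 and 6785 bp, overlapped no peak of another list.

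WT1, a zinc finger factor of progenitors and later of podocytes, had all 5 lists at its first start, with H2AZ peaks that were strong for their lists. It spans chr11:32387775-32435539 on the minus strand. H2AZ Abcam ran from −347 to 1277 bp with a −log10 q of 252, the highest of that list among the 8 genes and above 97.3% of the list. H2AZ CST had 56.7 and 48.7 in adjacent peaks over the same stretch, and H4K16ac reached 17.9. The 3 H3K79me2 peaks had 7.98, 15.3 and 11.3 and lay from −78 to 397, from 567 to 1326 and from 4382 to 4871 bp. The strongest of the 3, at 15.3, was above 65.6% of its list. Together the 3 peaks covered 3.45% of the 47765 bp of the gene. A second place with H2AZ, H3.3 and H4K16ac and no H3K79me2 lay between −3961 and −3373 bp, inside the non-coding WT1-AS, whose annotation overlaps the WT1 start.

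EYA1, which encodes a phosphatase that acts as a co-activator of SIX2, had few peaks for its size and no H3K79me2. It is the longest of the 8 genes, 350662 bp, from 71197433 to 71548094 on chromosome 8. At the higher-coordinate end H2AZ CST had 13.5, H2AZ Abcam 33.4 and H3.3 6.61 as their highest −log10 q, and H4K16ac had no peak there. The non-coding LOC102724772 overlaps that end of EYA1, so signal of the pair cannot be told apart. H2AZ CST, H2AZ Abcam and H3.3 met again in the middle of the gene, in peaks lying between 164178 and 164723 bp from the lower-coordinate end. The −log10 q there was 14.3 for H2AZ CST, 29 for H2AZ Abcam and 6.06 for H3.3. The single H4K16ac peak, 227 bp long, lay elsewhere in the body. The 4 lists with a peak covered between 0.0647% of the body, for H4K16ac, and 0.383%, for H2AZ Abcam.

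**Figure D2:**
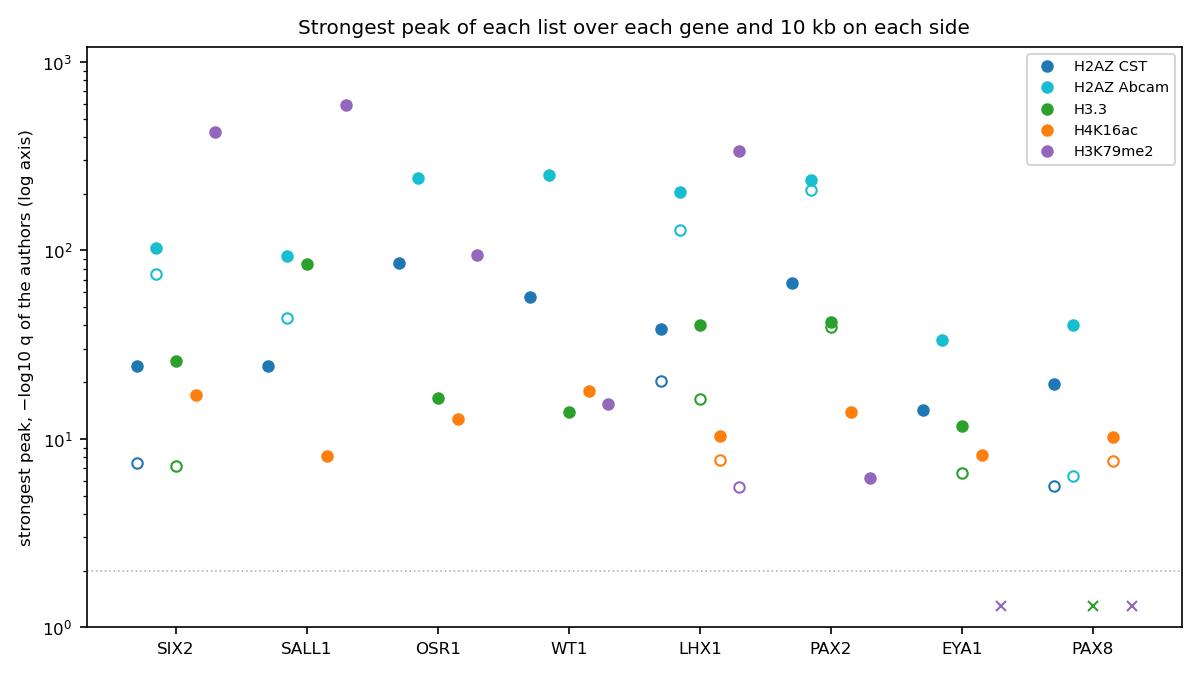
The strongest peak of each list per gene, as −log10 q of the authors on a log axis, with filled points for the gene and 10 kb on each side, hollow points for the gene body where that differs, and crosses below the dotted threshold line at 2 where there is no peak. Values of different lists are not on one scale: within the H3K79me2 list SALL1 and SIX2 stand at 591 and 425, and LHX1 at 338 through a peak at AATF, with 5.58 in its own body.

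Ordered by the share of the body under H3K79me2, SIX2 had 74%, SALL1 55.6%, OSR1 4.73%, WT1 3.45%, LHX1 3.13%, PAX2 0.306%, and EYA1 and PAX8 0%. SIX2 and SALL1 were the members past 10%, a level reached by 30.5% of all genes, and both were also past 50%, reached by 7.46% of all genes. The median over the 8 genes was 3.29%, against 1.37% over all genes. H4K16ac had a median of 5.37%, against 0.497% over all genes, and H3.3 5.42%, against 0.832%. H2AZ Abcam had 7.21%, against 1.2%, and H2AZ CST 5.21%, against 1.05%. Over the gene and 10 kb on each side the order for H3K79me2 was the other way, with a median of 2.24% in the 8 genes, against 2.56% over all genes. The other 4 lists kept their order there. The H4K16ac median over the body was 2.93% with a −log10 q of at least 5. Limiting each list to its 10000 strongest peaks gave a body median of 1.34% for H2AZ Abcam and 0% for the other 4 lists. The medians over all genes were not recomputed at those settings. SIX2 and LHX1 are short, at 4271 and 7828 bp, and a peak of a given width takes a larger share of a short gene. For the 3 lists with a peak at all 8 genes, the median −log10 q of the strongest peak was 31.4 for H2AZ CST, against 40.1 over all genes with a peak. It was 153 for H2AZ Abcam, against 122, and 11.5 for H4K16ac, against 12.7. In LHX1 the strongest peak of each of these 3 lists lay at AATF. For H2AZ Abcam that peak had 203, against 129 for the peak touching the LHX1 body. The medians were not recomputed without the AATF peaks, so no greater H2AZ Abcam strength at the 8 genes is read from them.

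**Figure D3:**
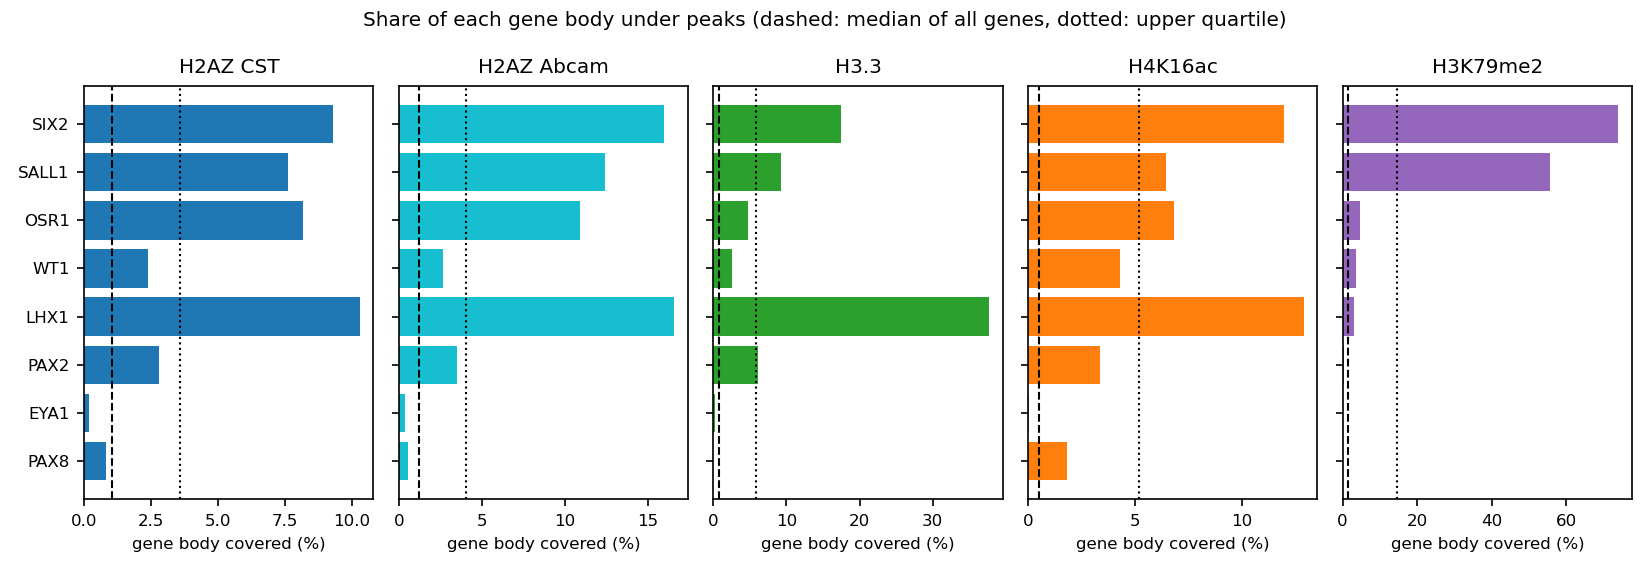
Share of each gene body under peaks in percent, 1 panel per list, with bars for the 8 genes and lines for the median (dashed) and upper quartile (dotted) of all 19451 protein-coding genes. H3K79me2 passes the upper quartile of 14.6% only in SIX2 and SALL1, whereas LHX1 has the longest bars in the other 4 lists.

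Genes with H3K79me2 in the body had a larger share of the gene and 10 kb on each side under each of the other 4 lists. The 6 marked genes were SIX2, PAX2, WT1, SALL1, OSR1 and LHX1, and the 2 unmarked genes were EYA1 and PAX8. Of the marked genes, LHX1 and PAX2 had the least H3K79me2 in the body, a peak of 245 bp in LHX1 and of 289 bp in PAX2. H3.3 covered between 2.9% and 21.4% of the gene and 10 kb on each side in marked genes, against 0% and 0.362% in unmarked genes. H2AZ CST covered 3.03% to 13.8% in marked genes, against 0.241% and 2.25%, and H2AZ Abcam 3.24% to 16.6%, against 0.45% and 1.8%. H4K16ac covered 3.33% to 7.27% in marked genes, against 0.0612% and 2.15%. The ranges did not overlap in any of the 4 lists, a count that was 3 lists with a −log10 q of at least 5 and 1 list with marked set by an H3K79me2 peak within 1 kb of a gene end. The lower of the unmarked values belonged to PAX8 for H3.3 and to EYA1 for the other 3 lists.

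Strength gave the same order for 3 of the 4 lists. The strongest H2AZ CST peak had a −log10 q of 24.3 to 85.6 in marked genes, against 14.3 and 19.5 in unmarked genes. For H2AZ Abcam it was 93 to 252, against 33.4 and 40.4, and for H3.3 it was 13.9 to 84.5, against 11.7 and no peak. For H4K16ac the ranges overlapped, with 8.16 to 17.9 in marked genes, against 8.24 and 10.2. SALL1, a marked gene, had the 8.16, below both EYA1 and PAX8.

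The contrast of marked and unmarked genes rests on 6 genes against 2, and a share depends on the length of the gene. Marked genes span 4271 to 94549 bp, against 350662 bp for EYA1 and 62925 bp for PAX8, which lies inside the range of the marked genes. Over all genes the order of length was the other way, with a median of 32060 bp in marked genes, against 17246 bp in unmarked genes. The part of length in the contrast was not tested. Counted in bases and not as a share, coverage of the window was 1739 to 4670 bp in marked genes, against 895 and 1869 bp, for H2AZ CST, and those ranges overlapped. They also overlapped for H3.3, at 979 to 7561 bp against 0 and 1342 bp, and for H4K16ac, at 1123 to 4394 bp against 227 and 1779 bp, but not for H2AZ Abcam, at 2194 to 5344 bp against 1494 and 1668 bp. Over all genes, the 11342 with H3K79me2 in the body had a median window coverage of 2.04% by H3.3 and the 8109 without it 0%. H4K16ac had 1.25% and 0.0463%, H2AZ Abcam 2.52% and 0.587%, and H2AZ CST 2.13% and 0.517%. Marked members thus differed from unmarked ones in the direction seen over all genes. When each list was limited to its 10000 strongest peaks, only SIX2, SALL1 and OSR1 were marked, and then none of the 4 lists had the higher median in marked genes. With marked taken as at least 10% of the body, only SIX2 and SALL1 were marked, and the ranges overlapped in all 4 lists. All 4 lists still had the higher median in marked genes at that setting.

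**Figure D4:**
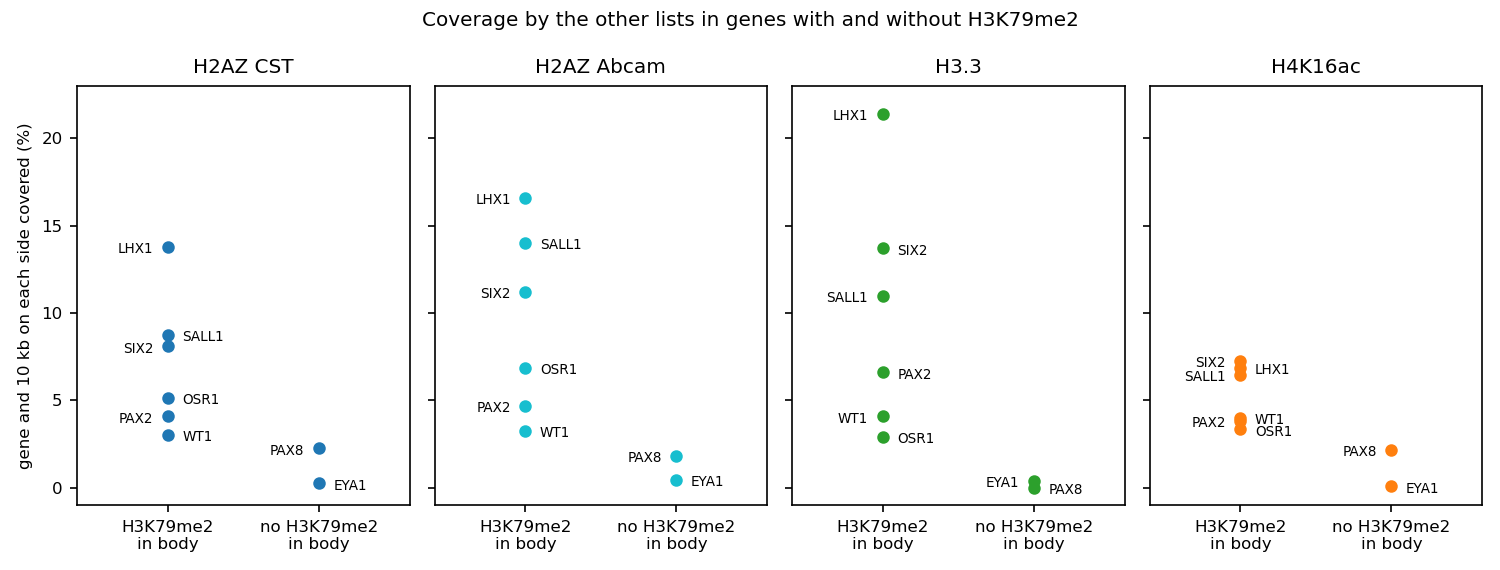
Share of the gene and 10 kb on each side under peaks of the other 4 lists in percent, with 1 point per gene, the 6 genes with H3K79me2 in the body on the left and the 2 without it on the right. Every marked gene lies above both unmarked genes in all 4 panels, the closest being WT1 at 3.03% and PAX8 at 2.25% for H2AZ CST.

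Across the 8 windows, most H3K79me2 peaks overlapped another signal. The windows held 43 H2AZ CST, 32 H2AZ Abcam, 64 H3.3, 57 H4K16ac and 18 H3K79me2 peaks. Of the 18 H3K79me2 peaks, 14 overlapped H3.3 (77.8%, against 33.6% of the whole list), 12 overlapped H4K16ac (66.7%, against 26.9%), and 11 each overlapped H2AZ CST and H2AZ Abcam (61.1%, against 23.6% and 24.1%). Their median width was 574 bp, against 496 bp for the whole list, and the parts of width and of nearness to gene ends in the overlap were not tested. Of the 18, 2 lay at AATF and not at one of the 8 genes. The 4 with no partner in any list were the 3 smaller SALL1 peaks and a peak of 267 bp in AATF. In the other direction 21 of 64 H3.3 peaks overlapped H3K79me2 (32.8%, against 34.8% of the whole list), and so did 19 of 57 H4K16ac peaks (33.3%, against 25.2%). Summits within 1 kb of a gene end numbered 7 of 18 for H3K79me2, 9 of 57 for H4K16ac, 15 of 64 for H3.3, 8 of 32 for H2AZ Abcam and 11 of 43 for H2AZ CST. The rest of the gene body was the largest class for H4K16ac, H3.3 and H3K79me2, with 31, 27 and 8 summits. The flanks were the largest class for H2AZ CST and H2AZ Abcam, with 17 and 13 summits, against 15 and 11 in the body. In each H2AZ list 3 of the flank summits lay nearer to another protein-coding gene, and without them the body would be the larger class. These classes were not counted over all genes.

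Other genes of the nephron lineage were read from lists of progenitor genes, of paralogs and of inducing signals. Of 10 other progenitor genes, 6 had H3K79me2 in the body and 10 had H3.3, and 8 each had H4K16ac and both H2AZ lists. The shares of all genes were 58.3% for H3K79me2, 68% for H3.3, 61% for H4K16ac, 76.3% for H2AZ Abcam and 75.1% for H2AZ CST. Their median body coverage by H3K79me2 was 13.7%, against 3.29% in the 8 genes. HOXA11 and HOXD11, homeobox genes of the nephrogenic field, each had 100% of the body under H3K79me2. Neither had an H2AZ peak in the body, and H3.3 covered 40.3% of HOXA11 and 17.6% of HOXD11. Over the gene and 10 kb on each side H3K79me2 reached a −log10 q of 751 at HOXA11 and 569 at HOXD11.

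Of 26 paralogs of the 8 genes, 15 had H3K79me2 in the body, close to the 58.3% of all genes. H3.3 lay in 24, against 68%, H4K16ac in 23, against 61%, and each H2AZ list in 23, against 75.1% for H2AZ CST and 76.3% for H2AZ Abcam. SIX5 had 79.6% of its body under H3K79me2 and 85.5% under H3.3, and OSR2 had 52.4% under H3K79me2 and 25.8% under H3.3. Of 12 signals of nephron induction 7 had H3K79me2 in the body, the same share as the 58.3% of all genes. H4K16ac lay in 12, against 61%, H3.3 in 11, against 68%, and each H2AZ list in 11, against 75.1% for H2AZ CST and 76.3% for H2AZ Abcam. SPRY1, an antagonist of receptor signalling, had 96.1% of its body under H3K79me2, and the ligand genes FGF8 and WNT11 had 14.6% and 7.82%.

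**Figure D5:**
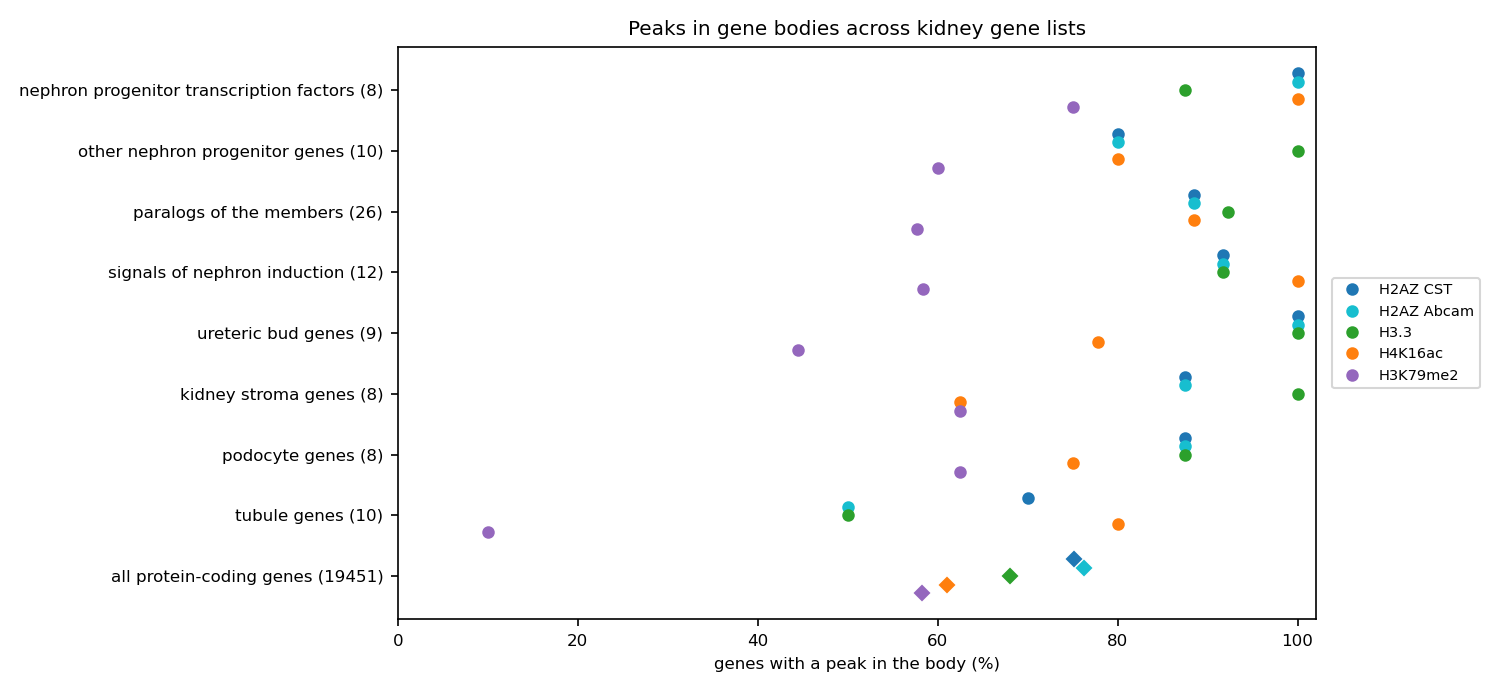
Percent of the genes of each list with a peak in the body, 1 point per peak list, with the number of genes in brackets and all protein-coding genes as diamonds in the lowest row. H3K79me2 lies at 6 of 8 nephron progenitor factors and at 1 of 10 tubule genes, against 58.3% of all genes.

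Likeness to other kidney genes was taken as the Euclidean distance over 5 percentiles, those of window coverage by the 5 lists among all genes, with 79 genes of the other lists compared. The nearest gene was EMX2 for LHX1 (distance 6.17), FGF8 for SIX2 (7.74), LHX9 for OSR1 (8.56), HOXC11 for SALL1 (8.66), WNT4 for WT1 (10.1) and LHX6 for PAX2 (13). The LHX1 window includes the H3K79me2 peaks at AATF, and LHX1 stood at percentile 81.8 for H3K79me2 over the window but at 56 in the body. H3K79me2 covered 3.13% of the LHX1 body and 36.8% of the EMX2 body. EYA1 and PAX8 had larger distances to their nearest genes, ITGA8 at 30.8 and AQP1 at 40.2. Most of the EYA1 distance came from H4K16ac, at percentile 30.2 in EYA1 and 0 in ITGA8. That percentile of EYA1 rests on its single H4K16ac peak of 227 bp. Of the other 4 lists H2AZ CST had the largest gap, with 20.2 in EYA1 and 25.4 in ITGA8. AQP1, like PAX8, had no H3.3 and no H3K79me2 over the gene and 10 kb on each side.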

How the data were processed

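The submitters' processing notes name Trimmomatic 0.33, bcl2fastq 2.17, MACS2 2.1.0 and Bowtie 1.1.2, and the human build hg38. The sources used here do not state tool settings, duplicate handling or any use of the input in peak calling. Each deposited list gives, per peak, the interval, the summit, the authors' fold enrichment (a linear ratio), their −log10 p and −log10 q, and a score. The score and the p were left aside. A shallow library can miss weak peaks, so a missing peak is not missing signal.

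Genes came from RefSeq's table of GRCh38.p14, the assembly that hg38 is built on, matched by official symbol (8 of 8). Windows were the gene, the gene with 10 kb on each side, and 1 kb around each end. A peak counted from 1 bp of overlap. Marked genes had an H3K79me2 peak over the body. The members and all gene lists were chosen with earlier results of these data known. All 8 members are named. Of each other list the text names up to 3 genes with the highest H3K79me2 coverage of the body and up to 2 without any peak, and for each member the gene nearest to it in coverage; some genes that this covers are not reported here. Overlaps were computed in Python 3.11.15 with numpy 2.4.6 and pandas 2.3.3, and the code was tested on simulated data. Results were recomputed with a −log10 q of at least 5, the 10000 strongest peaks, 50% overlap, other flanks and ends, peaks nearer to another gene left out, and other definitions of marked.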

Additional observations from a re-analysis of the deposited data

How the results depend on the processing

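No paired analysis was possible because each antibody had 1 library, so the groups share fewer than 2 replicate numbers. No count of members with a peak moved by over 1.5 times with a −log10 q of at least 5, with 50% of the peak inside the window, with 5 kb or no flank, with peaks nearer to another gene left out, or with 2 kb ends. Median body coverage with a −log10 q of at least 5 was 2.93% for H4K16ac, 4.88% for H3.3, 7.07% for H2AZ Abcam and 5.01% for H2AZ CST. With the 10000 strongest peaks of each list, members with a peak over the gene and 10 kb numbered 2 for H4K16ac, 3 for H3.3, 5 for H2AZ Abcam and 4 for H2AZ CST. At gene ends they numbered 2 each for H3K79me2, H4K16ac and H2AZ CST, 1 for H3.3 and 3 for H2AZ Abcam. Median body coverage was then 1.34% for H2AZ Abcam and 0% for the other 4 lists. Marked genes numbered 3 with those peaks, the lists with the higher median in marked genes 0, and the lists whose ranges did not overlap 0. The differences of medians, marked minus unmarked, were −2.29 percentage points for H2AZ CST and −0.000956 for H2AZ Abcam. With marked set by at least 10% of the body covered, 2 genes were marked and 0 lists had ranges that did not overlap. With marked set by an H3K79me2 peak at a gene end, 1 list had such ranges, and with a −log10 q of at least 5, 3 lists had them. All 4 lists kept the higher median in marked genes with either of these definitions of marked, and also with a −log10 q of at least 5. Each of these settings uses fewer peaks or fewer marked genes, and with the 10000 strongest peaks PAX2, WT1 and LHX1 moved to the unmarked genes. The cause of the changes was not tested. The depth of the libraries is unknown, and a missing peak means only that none was called.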

Other observations

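Among the other kidney lineages, genes of the mature tubule had the lowest share with H3K79me2 in the body of the 8 lists. Of 10 tubule genes, 1 had H3K79me2 in the body, LRP2, an endocytic receptor of the proximal tubule, with 0.303% covered, against 58.3% of all genes. H4K16ac lay in 8 of the same 10, against 61% of all genes, H2AZ CST in 7, against 75.1%, H2AZ Abcam in 5, against 76.3%, and H3.3 in 5, against 68%. SLC12A1, a salt transporter of the loop of Henle, had no peak of any list over the gene and 10 kb on each side. Of 8 podocyte genes 5 had H3K79me2 in the body, near the 58.3% of all genes, led by CD2AP, an adaptor of the slit diaphragm, at 18.7%, LMX1B at 7.78% and PODXL at 1.25%.

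Of 8 stroma genes, 5 had H3K79me2 in the body, near the 58.3% of all genes, and 8 had H3.3, against 68%. FOXD1, the forkhead factor of kidney stroma, had 86% of its body under H3K79me2, TBX18 15% and MEIS1 3.15%. H4K16ac lay at an end of 1 of these 8 genes, against 55% of all genes. Of 9 ureteric bud genes 4 had H3K79me2 in the body, against 58.3%, led by SOX9 at 48.5%, EMX2 at 36.8% and GATA3 at 17.9%, and all 9 had H3.3, against 68%, and both H2AZ lists, against 75.1% for H2AZ CST and 76.3% for H2AZ Abcam.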
